A study of Mus musculus with 30 samples.

Results

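The genes described here encode the proteins of the cytosolic ribosome in mouse splenic B cells. They were chosen by symbol alone, as every gene listed under an Rpl or Rps symbol with a number and at most a short suffix, together with Rplp0, Rplp1, Rplp2 and Rpsa. That gave 86 of 26266 genes in the table of young mice and 83 of 22781 in the table of aged mice, where Rpl26, Rpl32l and Rpl6l were not among the genes used. RefSeq (GRCm38.p6, the assembly of mm10) annotates 84 of the 86 as protein-coding, Rps4l as a transcribed pseudogene and Rpl6l as a pseudogene.

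Each ribosome holds a large and a small subunit, and each subunit binds its proteins at fixed stoichiometry on ribosomal RNA. Their messenger RNAs are among the most abundant of a cell, and in mammals they begin with a pyrimidine tract (the 5′ TOP motif) through which the growth regulator mTOR controls their translation. In B cells, resting follicular cells make few ribosomes and cells that respond to antigen make many more.

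All RNA came from splenic B cells of C57BL/6 mice. The mutant mice carry a conditional knock-in of Ikzf3-L161R, the mouse counterpart of human IKZF3 p.L162R, expressed in B cells only. Ikzf3 encodes the zinc finger transcription factor Aiolos, and the Cre driver is not given in the sources used here. In the young set (2 to 3 months) 3 homozygous libraries (Ikzf3 fl/fl) stand against 3 wild-type libraries, and the labels do not say that each came from its own animal, so that p-values there measure the spread between samples. In the aged set (15 to 18 months) there are 5 libraries of CLL cells, which are B220+CD5+ cells sorted by flow cytometry (libraries 1, 2, 4 and 5 heterozygous, Ikzf3 fl/+, and library 6 homozygous), 4 of non-CLL B cells from mutant animals (libraries 2, 4 and 5 heterozygous, library 6 homozygous) and 3 of wild-type B cells. B cells were isolated with magnetic beads, and purity in the aged set was 85% or more. CLL and non-CLL libraries of the same number come from the same mouse.

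Values are TPM, transcript abundances scaled by the authors for gene length and to the same total in every library, so the number of reads behind them is unknown. All 5 B cell markers looked at (Cd79a, Cd79b, Ms4a1, Pax5 and Ptprc) were above 0 in every library and summed to between 4521 and 12455 TPM. Sex-linked transcripts differed among the young libraries: Xist reached 80.9 TPM in wild-type library 1 and 63.1 TPM in wild-type library 2, and Ddx3y was at 107, 133 and 148 TPM in the homozygous libraries and at 54.3 TPM in wild-type library 3. In aged wild-type library 2 both were present, Xist at 38.1 TPM and Ddx3y at 17.4 TPM. Olfactory receptor genes, which B cells are not known to use, serve as a gauge of background: their median was 0 TPM in all young libraries, 7.18 to 9.21 TPM in aged non-CLL, 1.08 to 9.66 TPM in CLL (highest in library 6) and 0 to 0.745 TPM in aged wild-type libraries.

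Stretches of promoter are shown first, for the 5 genes with a RefSeq window that had the largest decreases in young homozygous cells and, for contrast, for the 3 core genes with such a window that had the smallest changes. Each runs from 40 bases before to 25 bases after an annotated start on GRCm38.p6, 5′ to 3′ on the gene's strand. Capitals mark runs of at least 8 pyrimidines (C or T) and the heptamer CCGGAAG or its reverse complement CTTCCGG, the core of sites bound by ETS family factors. Overlapping marks are merged.
Rps27l, chr9:66946046-66946110, plus strand: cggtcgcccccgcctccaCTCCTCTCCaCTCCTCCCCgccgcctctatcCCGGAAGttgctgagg
Rpl34, chr3:130730374-130730438, minus strand: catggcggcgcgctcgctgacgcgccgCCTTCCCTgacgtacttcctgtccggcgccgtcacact
Rps27, chr3:90213624-90213688, minus strand: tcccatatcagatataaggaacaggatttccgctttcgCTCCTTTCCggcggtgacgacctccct
Rpl41, chr10:128549144-128549208, minus strand: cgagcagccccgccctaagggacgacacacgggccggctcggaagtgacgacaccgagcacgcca
Rpl31, chr1:39367811-39367875, plus strand: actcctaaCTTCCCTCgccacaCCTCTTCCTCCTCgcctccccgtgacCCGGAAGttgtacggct
Rpl4, chr9:64173347-64173411, plus strand: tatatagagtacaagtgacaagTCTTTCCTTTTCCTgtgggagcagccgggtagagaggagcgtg
Rpl10, chrX:74270776-74270840, plus strand: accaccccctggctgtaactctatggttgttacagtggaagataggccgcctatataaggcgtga
Rps13, chr7:116334166-116334230, minus strand: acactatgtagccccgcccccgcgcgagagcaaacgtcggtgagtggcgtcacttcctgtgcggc

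RefSeq promoter windows (250 bases before to 50 bases after a start) matched 64 of the 86 genes and gave 76 windows. A run of at least 8 pyrimidines within 25 bases on either side of the start was present in 46.1% of these windows, against 19.7% of all 32851 windows. CCGGAAG, on either strand, was present in 35.5% of the ribosomal protein windows and 8.86% of all windows. The CGCG element, a palindrome bound by BANP, was present in 9.21% and 0.466%, AAGATGG in 15.8% and 6.34%, CACGTG (the E-box) in 10.5% and 7.15%, and TGGGAA in 21.1% and 25.6%, again on either strand. Among the genes tested in the young set, the 33 with a pyrimidine run at a start had a median log2 change of -0.44, and the 28 without one had -0.37. With and without CCGGAAG the medians were -0.46 (25 genes) and -0.40 (36 genes). Windows of both kinds thus occur among genes with large and with small changes, as Rpl4 and Rpl41 above show.

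In young homozygous B cells, messenger RNAs of the cytosolic ribosome took a smaller part of the transcriptome than in wild-type B cells. Their summed level was 17.6%, 15.6% and 15.7% of all TPM in homozygous libraries 1, 2 and 3, against 20.2%, 21.9% and 24.5% in wild-type libraries 1, 2 and 3. The groups do not overlap, and the means were 16.3% ± 1.14 in homozygous and 22.2% ± 2.15 in wild-type libraries (SD, n = 3 each). Of the 83 genes that passed the filter (at least 1 TPM in 3 libraries), 66 were called lower in homozygous cells at an adjusted p under 0.05 (limma), where 12.6% of all 12219 genes tested were, and 0 were called higher, where 38.4% of all genes were. An unadjusted p under 0.05 in limma's test was reached by 75, a count not made over all genes. The genes not tested were Rpl10l, Rpl3l and Rpl39l. In 75 of the 83 all homozygous libraries lay below all wild-type libraries, which was so for 16.9% of all genes.

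**Figure D1:**
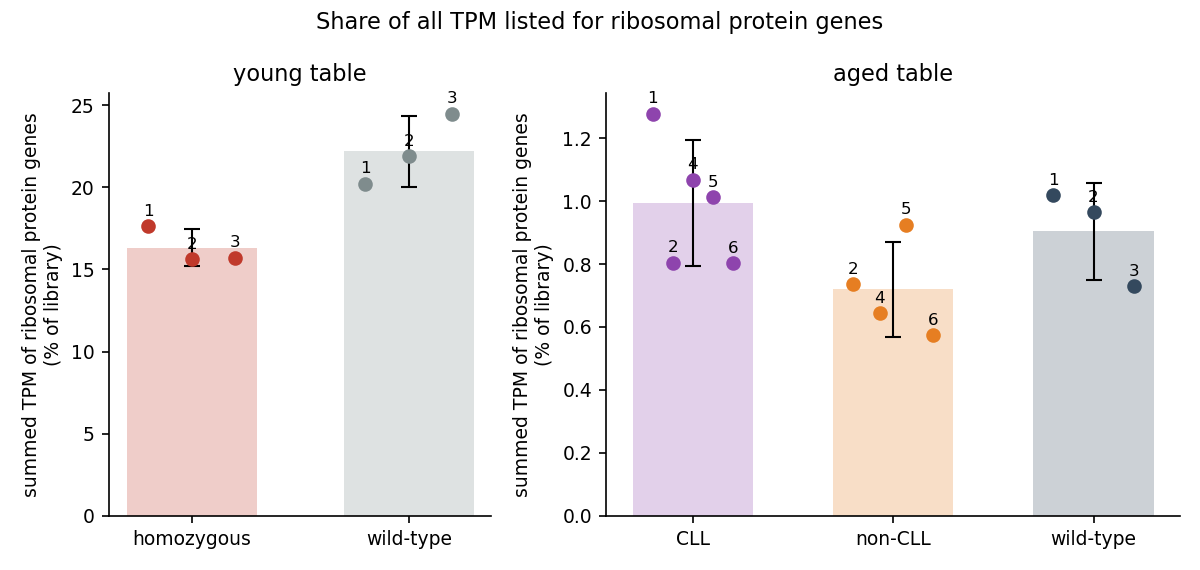
Summed TPM of the ribosomal protein genes as a percentage of each library, for the young table (left, homozygous and wild-type) and the aged table (right, CLL, non-CLL and wild-type), with separate axes that start at 0. Points are libraries with their numbers, bars are group means and whiskers are SD. The homozygous libraries sit between 15.6% and 17.6%, all under the wild-type libraries, while the 3 aged groups overlap between 0.574% and 1.28%.

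The decrease was of similar size in most genes. The median log2 change, on the scale of log2(TPM + 1), was -0.41, a level 24.7% lower, with quartiles at -0.55 and -0.33 and a range of -1.29 to 0.31. The median over all genes tested was 0.18, and 12.4% of all genes had a change under the median of the ribosomal protein genes. Rescaling each library by its median ratio to the others put the median of all genes at 0.0043 and turned their 4698 higher and 1539 lower calls into 3029 and 2683, while the ribosomal protein genes then had 81 lower and 0 higher calls and a median of -0.60. Level and change were only loosely related across the 83 genes (Spearman's rho -0.13 between wild-type TPM and log2 change, a description over genes that share the same 6 libraries).

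**Figure D2:**
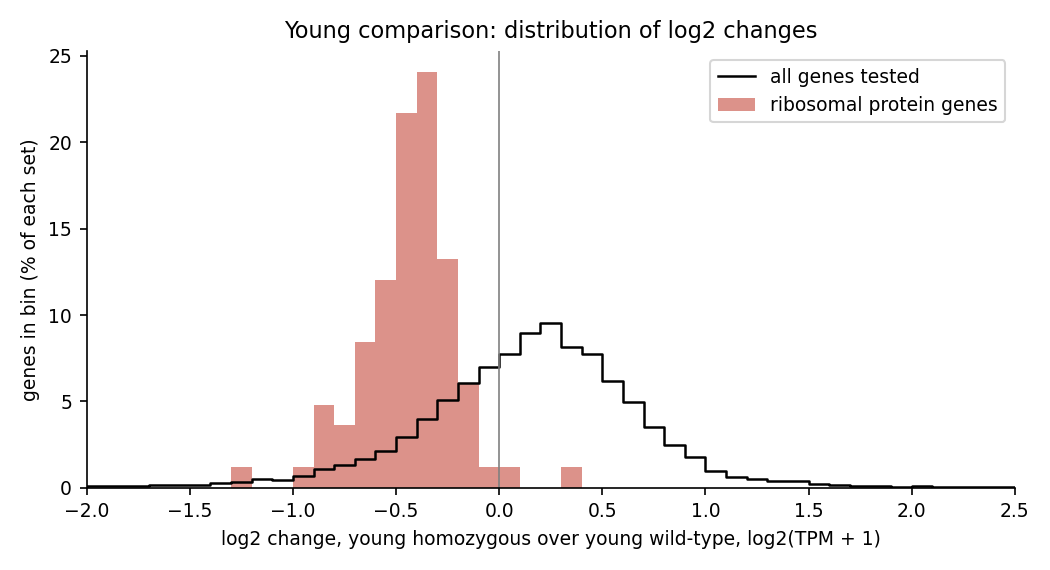
Distribution of log2 changes between young homozygous and young wild-type libraries in bins of 0.1, for the ribosomal protein genes (filled bars, 83 genes) and all 12219 genes tested (line), as a percentage of each set. The axis shows changes between -2 and 2.5. The ribosomal protein genes lie in a narrow range around -0.41, to the left of the median of all genes at 0.18.

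By part of the ribosome, 35 of 43 large-subunit genes were called lower (median log2 change -0.44), as were 26 of 31 small-subunit genes (-0.40) and all 3 genes of the P stalk (-0.42), the flexible arm that recruits elongation factors. Of 6 paralogues or copies tested 2 were called lower (-0.38). The summed TPM of the small subunit was 0.930 to 0.938 times that of the large subunit in homozygous and 0.935 to 0.953 times in wild-type libraries, so these ranges overlap.

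Rps27l, the paralogue of Rps27 that p53 is known to induce (chromosome 9, 66944624 to 66949522), had the largest decrease. It was listed at 65.8, 72.8 and 61.6 TPM in homozygous libraries, against 171, 177 and 146 TPM in wild-type libraries (log2 change -1.29, SE 0.10, adjusted p = 7.82e-05, n = 3 each). The groups do not overlap, and the call was kept under all 16 alternative settings tried. Its parent Rps27, a small-subunit protein with a zinc finger and the highest of the set by mean TPM in wild-type but not in homozygous libraries, was at 4160, 3587 and 3650 TPM in homozygous cells, against 5777, 7054 and 8423 TPM in wild-type libraries (log2 change -0.88, SE 0.14, adjusted p = 0.00123). As a percentage of Rps27, Rps27l stood at 1.58, 2.03 and 1.69 in homozygous and 2.96, 2.51 and 1.74 in wild-type libraries, overlapping between the groups.

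Rpl34, a large-subunit protein, was at 1786, 1067 and 1414 TPM in homozygous cells, against 2494, 2628 and 2819 TPM in wild-type libraries (log2 change -0.93, SE 0.17, adjusted p = 0.00377). Rpl41, which encodes one of the shortest proteins of the cell, was at 1344, 1109 and 1133 TPM in homozygous cells, against 1899, 2192 and 2286 TPM in wild-type libraries (log2 change -0.83, SE 0.11, adjusted p = 0.000637). For both genes the lowest wild-type library was far above the highest homozygous one. Rpl31, Rpl36, Rps28, Rps29 and Rpl38, the last known in mice for its part in the translation of Hox messages, followed with log2 changes of -0.82 to -0.71 (adjusted p between 0.00145 and 0.011).

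**Figure D3:**
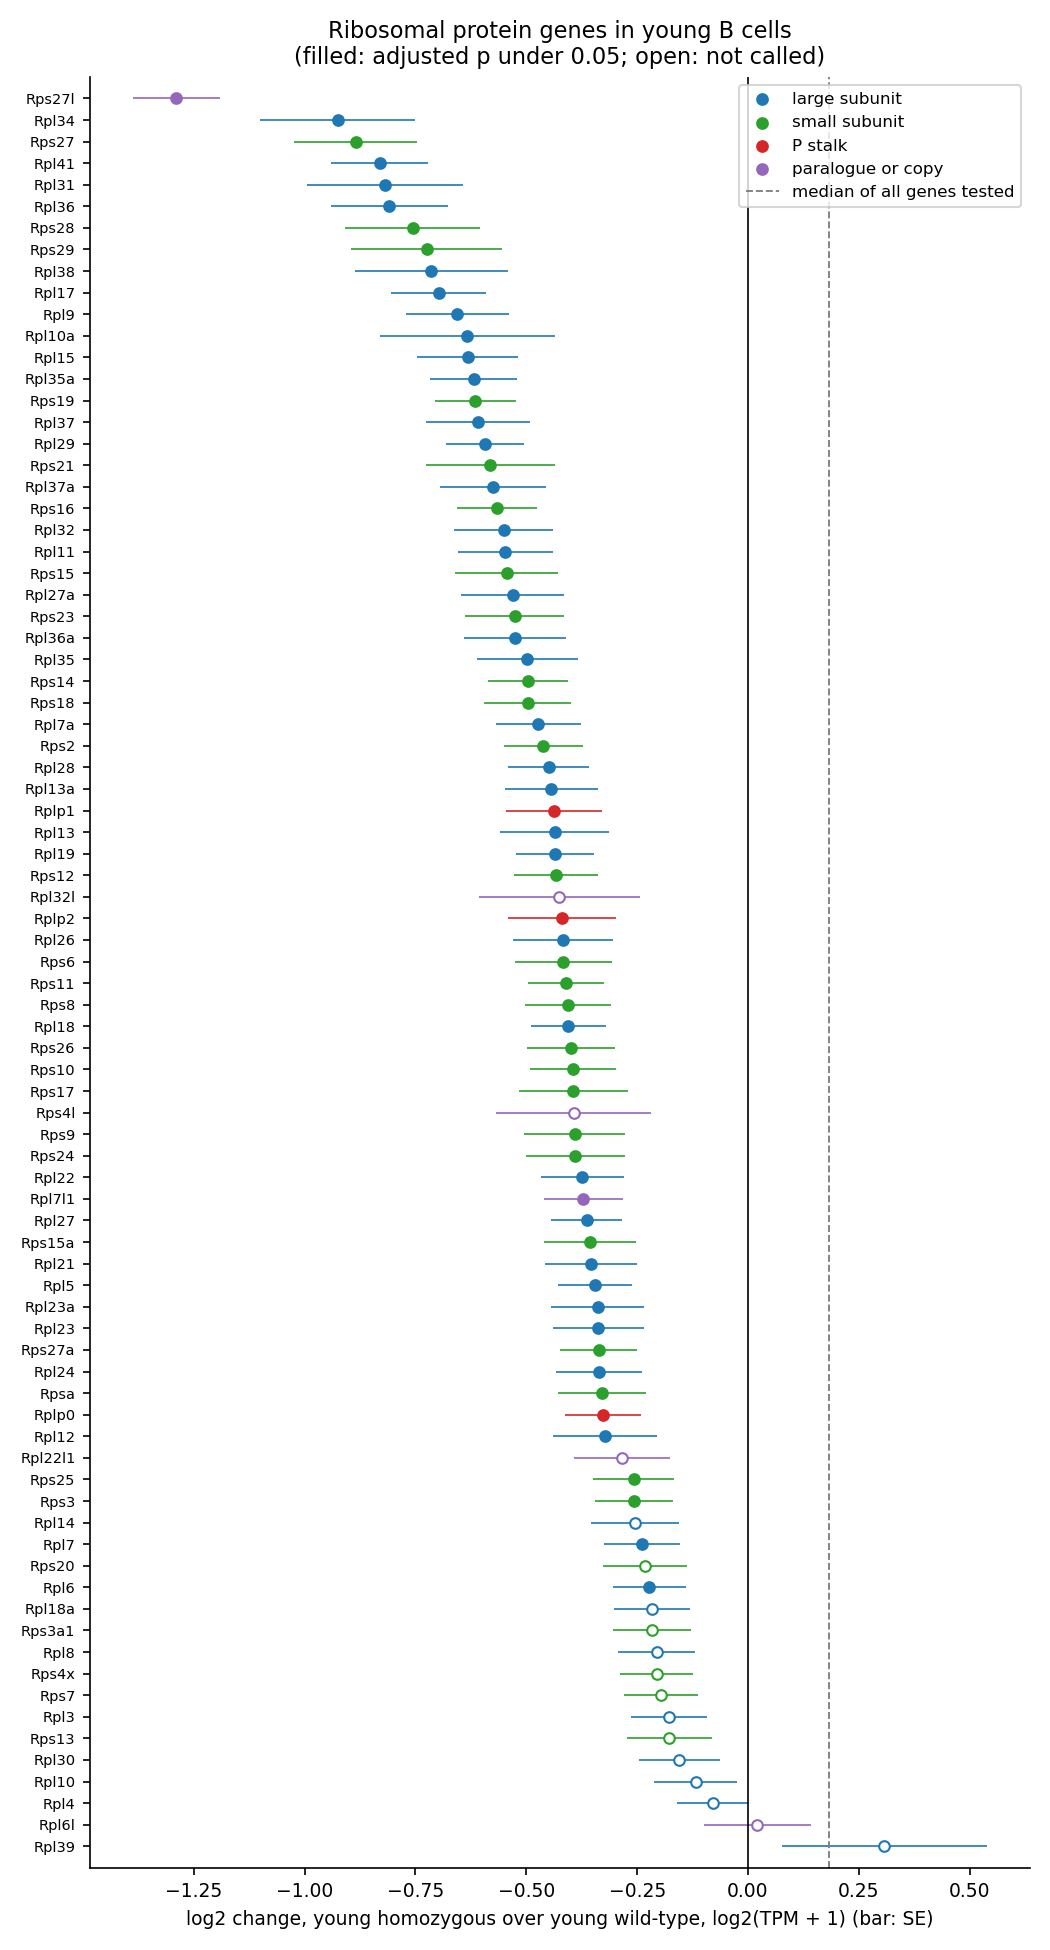
Log2 change of 82 of the 83 ribosomal protein genes tested between young homozygous and young wild-type libraries, on the log2(TPM + 1) scale, from the largest decrease at the top to the largest increase at the bottom. Points are fitted changes, whiskers are SE, colours mark the part of the ribosome, filled points are called at an adjusted p under 0.05 and the dashed line is the median of all genes tested. All genes drawn but Rpl6l and Rpl39 lie below 0.

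Rps19, the gene most often mutated in human Diamond-Blackfan anaemia, was at 2859, 2524 and 2503 TPM in homozygous cells, against 3824, 4011 and 4229 TPM in wild-type libraries (log2 change -0.61, adjusted p = 0.000997). Rps14, lost in the human 5q deletion syndrome, was at 3660, 3326 and 3323 TPM in homozygous cells, against 4485, 5089 and 4978 TPM in wild-type libraries (log2 change -0.50, adjusted p = 0.00238). Both separate the groups completely. Rps15, which is mutated in a part of human CLL, was at 4352, 3781 and 3872 TPM in homozygous cells, against 5307, 5466 and 6816 TPM in wild-type libraries (log2 change -0.54, adjusted p = 0.00489). Rpl5 and Rpl11, which with 5S ribosomal RNA bind the p53 inhibitor Mdm2, had log2 changes of -0.35 (adjusted p = 0.00855) and -0.55 (adjusted p = 0.00317). Rps6, the substrate of the S6 kinases, had -0.42 (adjusted p = 0.0122).

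The P stalk genes moved together with the rest. Rplp1 was at 4170, 3677 and 3707 TPM in homozygous cells, against 4669, 5118 and 5912 TPM in wild-type libraries (log2 change -0.44, adjusted p = 0.00982). Rplp0 and Rplp2 had log2 changes of -0.33 (adjusted p = 0.0123) and -0.42 (adjusted p = 0.0194), and Rpsa, the small-subunit protein also described as a laminin receptor, had -0.33 (adjusted p = 0.0217). Rps18 and Rps24, which with Rps27 had the highest mean TPM over all 6 libraries, had -0.50 (adjusted p = 0.00339) and -0.39 (adjusted p = 0.018). Rpl13a, known from translational silencing in inflamed myeloid cells, had -0.44 (adjusted p = 0.00752), Rps27a, which is made as a fusion to ubiquitin, -0.34 (adjusted p = 0.0117), and Rps3, also described as a partner of NF-kB, -0.26 (adjusted p = 0.0354). Rpl22, whose loss in mice arrests T cells of the alpha-beta lineage, had -0.37 (adjusted p = 0.0096). Its paralogue Rpl22l1 was at 608, 588 and 560 TPM in homozygous cells, against 607, 751 and 793 TPM in wild-type libraries, with a log2 change of -0.28 that missed the threshold (adjusted p = 0.0542) and groups that overlap through wild-type library 1.

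The 17 genes not called had log2 changes of -0.43 to 0.31. Rpl4, a large-subunit protein at the exit tunnel, changed least among the abundant genes, with 2766, 2715 and 2653 TPM in homozygous cells, against 2751, 2873 and 2973 TPM in wild-type libraries (log2 change -0.08, SE 0.08, adjusted p = 0.423). Rpl10, a late-joining protein mutated in human T cell leukaemia, had -0.12 (adjusted p = 0.315), Rpl3, of the peptidyl transferase region, -0.18 (adjusted p = 0.113), and the X-linked Rps4x -0.21 (adjusted p = 0.0641), while Rpl7 was called at -0.24 (adjusted p = 0.045). Rpl10 and Rpl4 overlap between the groups, Rpl3 and Rps4x do not. Rpl39, a short protein of the exit tunnel, was listed at only 7.88, 4.44 and 6.3 TPM in homozygous cells, against 5.59, 3.26 and 5.62 TPM in wild-type libraries (log2 change 0.31, adjusted p = 0.291), and many genes of the set have processed copies with which reads can be shared, so that single levels are uncertain. Of the paralogues, Rpl7l1 was called lower, with 60.3, 63.9 and 62.2 TPM in homozygous cells, against 73.8, 78.6 and 90.3 TPM in wild-type libraries (log2 change -0.37, adjusted p = 0.00807). Rps4l, at 4.79 to 7.44 TPM in homozygous cells, against 7.62 to 10.4 TPM in wild-type libraries, was not called (adjusted p = 0.0886), and the testis and muscle paralogues Rpl10l, Rpl39l and Rpl3l stayed under 2 TPM in every young library (at most 0.11, 1.74 and 0.479 TPM).

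The libraries of a group differed in level, and the genes followed their library. Wild-type library 1 was lowest of its group for 79 of 84 genes over 1 TPM and wild-type library 3 highest for 74, and homozygous library 1 was highest of its group for 77 of 83. Myeloid markers differed between the groups. The 8 of them, none at 0, summed to 393, 328 and 154 TPM in homozygous libraries 1, 2 and 3. In wild-type libraries 1, 2 and 3 they summed to 2447, 5064 and 1351 TPM. Marker sums of other cell types overlapped between homozygous and wild-type libraries. They were 8.66 to 15.9 and 13.4 to 30.8 TPM for T cells and 29.9 to 41.9 and 32.9 to 47.5 TPM for dendritic cells. For erythroid cells they were 18.0 to 98.4 and 69.2 to 131 TPM, and for plasma cells 578 to 848 and 504 to 1281 TPM. In such bulk samples, fewer cells of a type and less RNA per cell cannot be told apart. With wild-type libraries 1 and 2, which also differ from the rest in sex-linked transcripts, left out and wild-type library 3 assumed to vary like the homozygous ones, 61 of 84 genes were called lower and 0 higher, with a median log2 change of -0.56, where 742 of 12734 genes were called lower and 2116 higher and the median was 0.15. Among genes named by role, size of change or level, Rpl34 (log2 change -1.02) and Rps3 (-0.26) then lost their calls. Leaving out any 1 library gave 45 to 68 lower calls and 0 higher, the fewest without homozygous library 3 and next without homozygous library 2 (47). Of the 66 calls, 45 were kept without homozygous library 3, 47 without homozygous library 2 and 58 without wild-type library 2. Without homozygous library 3, 1042 of all 12472 genes were called lower and 3469 higher. The calls that ended are listed here only for genes named by role, size of change or level. Without homozygous library 3 they were those of Rplp0, Rplp2, Rpsa, Rps6, Rps27a, Rps24, Rps3 and Rpl7. Without homozygous library 2 they were those of Rplp0, Rplp2, Rpsa, Rps24, Rps3 and Rpl7, and without wild-type library 2 those of Rpsa, Rps24, Rps3 and Rpl7. That of Rpl7 also ended without homozygous library 1 or wild-type library 3, and Rpl22l1 was called without wild-type library 1 (adjusted p = 0.0125).

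Other genes of the translation apparatus were counted in the same way in young homozygous cells. Of the 5 cytosolic subunit genes that the symbol rule left out, all were called lower, led by Rps27rt, a retrocopy of Rps27 (log2 change -0.69, adjusted p = 0.00697). Of 77 mitochondrial ribosomal proteins 38 were called lower and 3 higher (median log2 change -0.25), with Mrpl52 at -1.08 (adjusted p = 0.000191) and Mrpl23 at -0.85 (adjusted p = 0.000724). Among 34 initiation factors 11 were called higher and 5 lower (median 0.08), led by Eif5 (329 ± 14.3 TPM in homozygous cells, against 166 TPM in wild-type libraries, log2 change 0.98, adjusted p = 7.47e-05) and the helicase Eif4a2 (0.91). Elongation and termination factors were higher in 1 and lower in 2 of 12 (median -0.08), among them Eef1g at -0.29 and the ribosome maturation factor Efl1 at 0.33. Of 14 other genes with a 5′ TOP motif 7 were higher and 2 lower (median 0.32), with Hnrnpa1 at 0.62 and Snhg1 at 0.52, and of 10 chaperones of ribosomal proteins 2 were higher and 1 lower (median 0.03), with Ltv1 at 0.41 and Nacad at 0.55. Each of these counts stands against 38.4% higher and 12.6% lower among all genes.

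In the aged table the same genes were listed at far lower levels, for every group. Their sum was 1.28%, 0.804%, 1.07%, 1.01% and 0.802% of all TPM in CLL libraries 1, 2, 4, 5 and 6, then 0.736%, 0.644%, 0.925% and 0.574% in non-CLL libraries 2, 4, 5 and 6, and 1.02%, 0.966% and 0.729% in wild-type libraries 1, 2 and 3. The 3 groups overlap. A mean of at least 100 TPM in young wild-type libraries was reached by 77 of the shared genes. Of these genes, 69 were more than 10-fold and 40 more than 100-fold higher there than in aged wild-type libraries. Such counts were not made over all genes, so whether the difference is particular to this set was not tested. In aged wild-type libraries Rpl4 was within 2-fold of its level in young wild-type libraries. Spearman's rho across the 83 shared genes was 0.23, a description over genes of tables that were made separately. How reads shared with pseudogene copies were counted is not given in the sources used here.

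A few genes therefore dominate the aged sums. Rpl4 alone made up 21.4% to 29.2% of the summed TPM of the set in CLL libraries, 20.5% to 29.8% in non-CLL and 29.1% to 40.3% in wild-type libraries, against 1.57% to 1.74% in young homozygous and 1.21% to 1.36% in young wild-type libraries. It was at 3732, 2037, 2290, 2732 and 1728 TPM in CLL libraries, 1510, 1490, 2759 and 1287 TPM in non-CLL libraries and 2959, 3188 and 2934 TPM in wild-type libraries. Rps3a ranged from 622 to 1403, 559 to 958 and 377 to 818 TPM in CLL, non-CLL and wild-type libraries, and Rps3 averaged 725, 527 and 689 TPM in those groups. At the other end Rpl30, a large-subunit protein at 2471 to 2798 TPM in young homozygous and 2729 to 3123 TPM in young wild-type libraries, was listed at 0.502 to 8.14 TPM in CLL, 0 to 6.1 TPM in non-CLL and 0.582 to 1.4 TPM in wild-type libraries, and Rpl10l at 0 to 4.8 TPM over the 12 libraries. Of the 83 genes, 59 to 80 lay above the 95th percentile of olfactory receptor genes in CLL libraries, 28 to 62 in non-CLL and 78 to 81 in wild-type libraries, so that many values in non-CLL libraries and in CLL library 6 lie within the background.

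**Figure D4:**
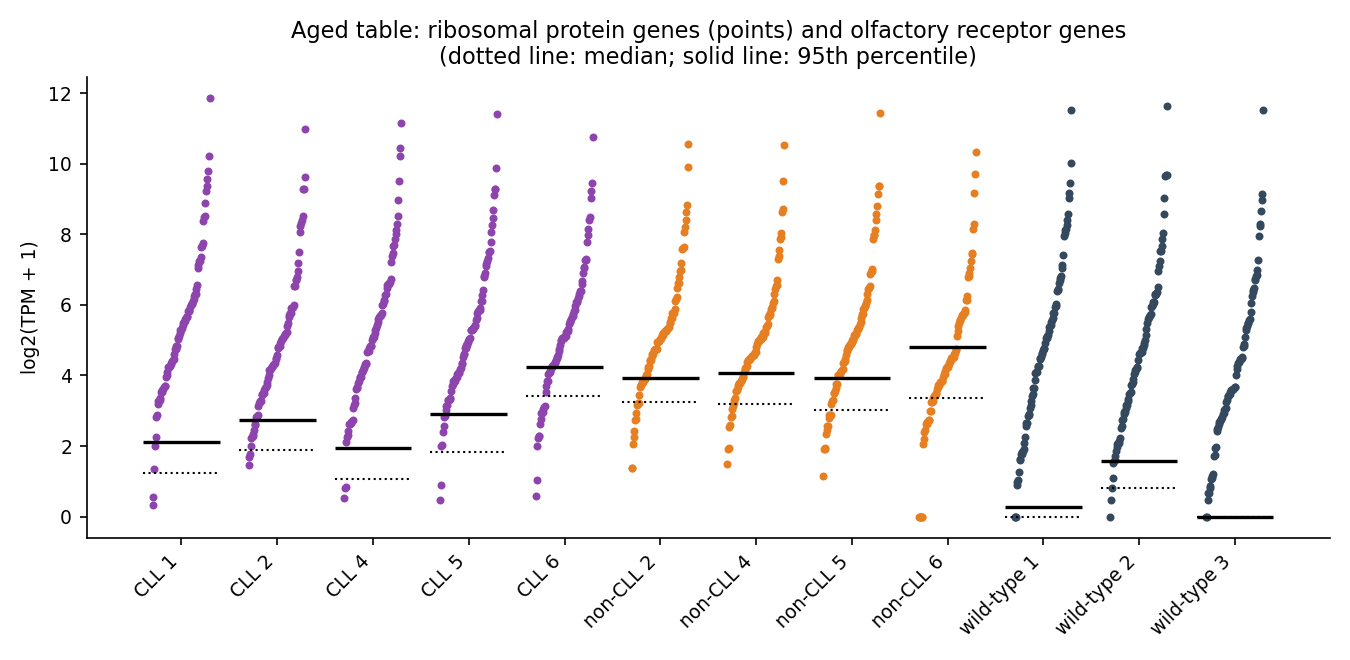
Levels of the 83 ribosomal protein genes (points, ordered by level within a library) in the aged libraries, as log2(TPM + 1), with the median (dotted line) and the 95th percentile (solid line) of olfactory receptor genes of the same library. The background lines are highest in the 4 non-CLL libraries and CLL library 6 and near 0 in wild-type libraries 1 and 3.

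CLL cells were set against wild-type B cells of aged mice to ask what the leukaemic cells express. Of 82 ribosomal protein genes tested 11 were called higher (2.94% of all 21202 genes were) and 3 lower (0.604% of all genes), and 68 were not called. The median log2 change of the set was 0.76 and that of all genes 0.93. Rescaling each library by its median ratio moved these medians to -0.13 and 0.27 and gave 4 higher and 10 lower calls, so the direction of the set depends on the scaling. The calls of all genes were then 6380 higher and 2942 lower, against 623 and 128 without it.

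Rps13, a small-subunit protein, was at 75.5, 49.2, 76, 84.4 and 61 TPM in CLL libraries, against 7.87, 23.9 and 11.1 TPM in wild-type libraries (log2 change 2.31, SE 0.37, adjusted p = 5.41e-05, n = 5 and 3). Rps23, of the decoding centre, was at 23.2, 22.8, 19.1, 13.9 and 19.3 TPM in CLL and 0.878, 3.27 and 7.36 TPM in wild-type libraries (log2 change 2.32, SE 0.51, adjusted p = 0.00474). Rpl27 was at 25.8, 16.9, 25, 32.1 and 30.4 TPM in CLL and 7.44, 4.95 and 5.36 TPM in wild-type libraries (log2 change 1.95, SE 0.44, adjusted p = 0.00654). For these 3 genes every CLL library exceeded every wild-type library, and Rpl23a, a docking site at the exit tunnel (log2 change 2.13, adjusted p = 0.0233), was also among the largest increases. Rpl24, Rpl28, Rpl37, Rpl41, Rpl7a, Rps27a and the P stalk gene Rplp1 (150, 123, 99.2, 179 and 153 TPM in CLL and 108, 52.6 and 28.8 TPM in wild-type libraries) were the others called higher, with log2 changes of 1.32 to 1.88. After subtraction of the olfactory receptor median from each library only Rps13 of the 11 was still called (log2 change 2.24, adjusted p = 0.0152), while among all 13033 genes then tested 48 were called higher and 53 lower. The log2 changes of Rps23, Rpl27 and Rpl23a were then 2.11, 1.81 and 1.77 (adjusted p = 0.092, 0.0541 and 0.17). Rps23 was no longer called when wild-type library 1 was left out (adjusted p = 0.076), nor was Rpl23a without wild-type library 3 (adjusted p = 0.243).

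The 3 genes called lower lay above the 95th percentile of olfactory receptor genes in every CLL library, by least in library 6, where that percentile was 18.0 TPM. Rps25, a small-subunit protein needed for some forms of cap-independent initiation, was at 65.3, 32.6, 50.3, 53.4 and 25.7 TPM in CLL libraries, against 278, 135 and 103 TPM in wild-type libraries (log2 change -1.84, SE 0.36, adjusted p = 0.00106). Rps4x was at 49, 31.8, 27.7, 23.2 and 37 TPM in CLL and 112, 124 and 114 TPM in wild-type libraries (log2 change -1.81, SE 0.34, adjusted p = 0.000815). Rpl7, a large-subunit protein, was at 131, 59.4, 62.2, 109 and 95.9 TPM in CLL and 306, 233 and 302 TPM in wild-type libraries (log2 change -1.66, SE 0.32, adjusted p = 0.00115). In none of the 3 do the groups overlap, and all 3 were called whichever library was left out. After background subtraction Rps25 had a larger log2 change of -2.02 that missed the threshold (adjusted p = 0.0541). The count of calls depended on single libraries: it was 14 in all, 23 without CLL library 1, 30 without CLL library 4, 27 without CLL library 6, 22 without wild-type library 2 and 9 without wild-type library 3. Calls of all genes moved too. They were 4771 higher and 341 lower of 20685 without CLL library 1 and 7744 and 478 of 20885 without CLL library 4. Without CLL library 6 they were 5324 and 319 of 19496. They were 3742 and 516 of 22072 without wild-type library 2, and 265 and 80 of 22109 without wild-type library 3.

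Among genes with known roles, Rps15 had a log2 change of 0.88 (adjusted p = 0.058) in CLL cells, with 138, 103, 178, 143 and 132 TPM in CLL and 140, 61.7 and 46.6 TPM in wild-type libraries that overlap through wild-type library 1, and it was called without that library (adjusted p = 0.0455) or without CLL library 1 (adjusted p = 0.0459). Rps14 (0.85), Rps19 (0.63), Rpl5 (0.29), Rpl11 (0.86), Rps6 (0.28), Rplp0 (0.32), Rplp2 (0.83), Rpsa (-0.18), Rpl3 (0.28), Rpl22 (0.02) and Rps3 (0.02) were not called either (adjusted p between 0.0628 and 0.97). Of the paralogues tested 0 of 6 were called. The 7 myeloid markers listed summed to 227 to 1530 TPM in CLL and 35.6 to 209 TPM in wild-type libraries, without overlap, and S100a8 and S100a9 were at 0 in wild-type library 1. The 5 T cell markers summed to 8.11 to 372 TPM in CLL and 2.02 to 612 TPM in wild-type libraries, with Cd3e at 0 in wild-type libraries 1 and 3. Their part in these results was not tested.

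**Figure D5:**
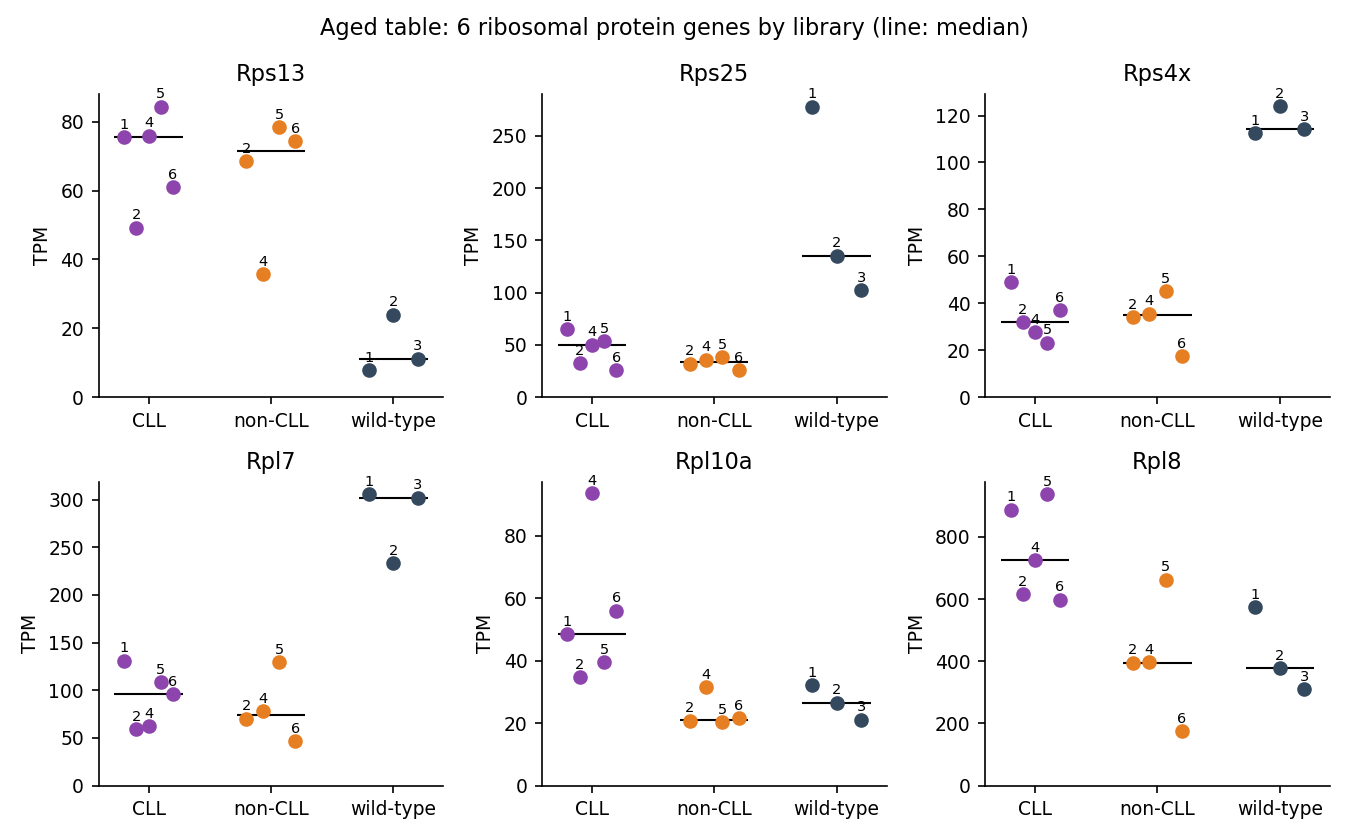
TPM of 6 ribosomal protein genes in the aged CLL, non-CLL and wild-type libraries, on axes that start at 0. Points are libraries with their numbers and lines are medians. Rps13 is lower and Rps25, Rps4x and Rpl7 are higher in each wild-type library than in any CLL or non-CLL library, and Rpl10a and Rpl8 are higher in CLL than in most non-CLL libraries.

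CLL cells and non-CLL B cells of the same mice were compared to ask what sets the leukaemic cells apart within mutant animals. Of 83 genes tested 3 were called higher in CLL cells (0.744% of all 22316 genes) and 0 lower (5.02% of all genes). In limma's test 15 had an unadjusted p under 0.05, a count not made over all genes. The median log2 change of the set was 0.27 where that of all genes was -0.77. Median-ratio rescaling put these medians at 1.01 and -0.19 and the calls of all genes at 252 higher and 132 lower, against 166 and 1121 without it. With the mouse as a block, which the shared animals call for, only Rpl10a was called (adjusted p = 0.0443), and Rpl8 and Rpl7l1 were not (adjusted p = 0.051 and 0.0599). Of all 22316 genes 120 were called higher and 577 lower with that block. In the 4 mice with both libraries the summed share was 0.804%, 1.07%, 1.01% and 0.802% in CLL cells of mice 2, 4, 5 and 6, against 0.736%, 0.644%, 0.925% and 0.574% in their non-CLL cells, so it was higher in CLL cells of 4 of 4 mice. By gene, 11 of 83 were higher in the CLL library of every mouse (4.36% of all genes) and 4 lower (34.0% of all genes).

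Rpl10a, a protein of the mobile L1 stalk (chromosome 17, 28328471 to 28331033), was at 48.5, 34.8, 93.5, 39.6 and 56 TPM in CLL libraries, against 20.8, 31.6, 20.4 and 21.5 TPM in non-CLL libraries (log2 change 1.11, SE 0.32, adjusted p = 0.0431). Rpl8, of the peptidyl transferase region, was at 887, 617, 725, 938 and 598 TPM in CLL and 395, 396, 662 and 174 TPM in non-CLL libraries (log2 change 1.01, SE 0.30, adjusted p = 0.0486). The paralogue Rpl7l1 was at 151, 109, 206, 184 and 83.1 TPM in CLL and 73, 49.7, 116 and 51.8 TPM in non-CLL libraries (log2 change 1.01, SE 0.31, adjusted p = 0.0488). Each of the 3 was higher in CLL cells of 4 of 4 mice, although Rpl8 and Rpl7l1 overlap between the groups through mouse 5. All 3 lie close to the threshold. The calls of all 3 ended without CLL library 1, 4 or 5 or non-CLL library 2, 4 or 6 (adjusted p between 0.0517 and 0.139), and that of Rpl10a also without non-CLL library 5 (adjusted p = 0.0738). The count was 0 without any 1 of CLL libraries 1, 4 and 5 and non-CLL libraries 4 and 6, 1 without non-CLL library 2, 5 without CLL library 2 and 11, of which 2 lower, without CLL library 6. Where the count was 0, 70 to 103 of all genes were called higher and 233 to 330 lower. Without non-CLL library 2 these numbers were 96 and 307. Of all genes 121 of 22255 were called higher and 620 lower without CLL library 2. Without CLL library 6, 382 of 22078 were called higher and 10736 lower. Dendritic cell markers (4 genes) summed to 8.47 to 81.5 TPM in CLL and 250 to 946 TPM in non-CLL libraries, none at 0, and their part was not tested.

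Rps25, Rps4x, Rpl7 and Rps13, which stood apart between CLL and wild-type cells, had log2 changes of 0.39, 0.06, 0.20 and 0.14 between CLL and non-CLL cells (adjusted p between 0.35 and 0.906, SE 0.29 to 0.33). Rps14 (0.86, adjusted p = 0.0539), Rps18 (0.96, adjusted p = 0.0548) and Rplp1 (0.90, adjusted p = 0.056) missed the threshold by little.

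Non-CLL B cells of aged mutant mice were also set against the same 3 wild-type libraries. Of 83 genes 21 were called higher, where 55.8% of all 22150 genes were, and 6 lower, where 1.48% of all genes were, and after median-ratio rescaling the calls turned to 2 higher and 48 lower (9650 higher and 7004 lower among all genes, against 12353 and 328 without it). The median log2 change of the set was 0.31 and that of all genes 1.65, or -1.22 and 0.71 after that rescaling. The genes called lower were Rps25, Rps4x, Rpl7, Rpl6, Rpl13a and Rpl4. Dendritic cell markers summed to 250 to 946 TPM in non-CLL and 41.6 to 192 TPM in wild-type libraries, and myeloid markers to 250 to 544 TPM in non-CLL and 35.6 to 209 TPM in wild-type libraries, both without overlap, with Siglech, S100a8 and S100a9 at 0 in wild-type library 1. Their part in the calls was not tested.

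Rps25 was at 32.1, 35.9, 37.9 and 26.1 TPM in non-CLL libraries, against the wild-type values given above (log2 change -2.23, SE 0.34, adjusted p = 0.000164), and was called lower under all 17 alternative settings. Rps4x was at 34.2, 35.5, 45.1 and 17.5 TPM in non-CLL libraries (log2 change -1.87, SE 0.32, adjusted p = 0.00036) and Rpl7 at 70.3, 78.3, 129 and 46.4 TPM (log2 change -1.86, SE 0.32, adjusted p = 0.000407). In non-CLL library 6 Rps25 and Rps4x lay under the 95th percentile of olfactory receptor genes, 27.1 TPM. Rpl6 was at 13.2, 23.1, 17.2 and 12.2 TPM in non-CLL and 46.6, 47.2 and 33 TPM in wild-type libraries (log2 change -1.33, SE 0.31, adjusted p = 0.0033). None of these genes overlap between the groups. Rpl6 lay under that percentile in non-CLL library 2 (14.3 TPM) and library 6 (27.1 TPM). Its call was lost with the filter at 20 TPM and after background subtraction. Rpl4 had a log2 change of -0.85 (adjusted p = 0.0167) that missed the threshold once wild-type library 2 was left out (adjusted p = 0.0546). The call of Rpl4 was also lost with the filter at 20 TPM and after background subtraction. Rpl13a had a log2 change of -1.26 (adjusted p = 0.00182) and was not called with that filter or after that subtraction either.

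The largest increases, of Rpl3l and Rpl39l, were near background. Rpl3l, the heart and skeletal muscle paralogue of Rpl3, was at 6.57, 6.16, 4.95 and 9.59 TPM in non-CLL and 0, 0.759 and 0 TPM in wild-type libraries (log2 change 2.66, adjusted p = 6.89e-05), and Rpl39l, of the testis, at 4.34, 16.3, 6.31 and 12.7 TPM in non-CLL and 0, 2.26 and 0.815 TPM in wild-type libraries (log2 change 2.44, adjusted p = 0.00177). Most of these levels lie around the olfactory receptor medians of the same libraries (7.18 to 9.21 TPM in non-CLL cells). Rpl39l in non-CLL library 4 lay just above the 95th percentile of that library (15.8 TPM). Rpl23a had a log2 change of 2.29 (adjusted p = 0.0292), and lost its call without non-CLL library 2, 4 or 6 or wild-type library 1 or 3 (adjusted p between 0.0516 and 0.118). Rps13 was above the 95th percentile of olfactory receptor genes in every library, at 68.6, 35.6, 78.5 and 74.5 TPM in non-CLL and 7.87, 23.9 and 11.1 TPM in wild-type libraries (log2 change 2.17, SE 0.41, adjusted p = 0.000698). After background subtraction 0 of 79 genes tested were called higher and only Rps25 lower (log2 change -2.65, adjusted p = 0.0233), where 31 of all 13427 genes were called higher and 12 lower, with Rps13 at a log2 change of 1.97 (adjusted p = 0.0607).

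Rps15 had a log2 change of -0.34 (adjusted p = 0.708) in non-CLL cells, with 123, 92, 65.9 and 14.6 TPM. Its sign turned to 0.26 with library weights, 0.29 without non-CLL library 6 and 0.11 without wild-type library 1. Rps14 (-0.01), Rps19 (-0.14), Rpl5 (-0.14), Rpl11 (1.06), Rps6 (0.13), Rplp0 (-0.08), Rplp1 (0.42), Rplp2 (0.67), Rpsa (0.31), Rpl3 (-0.02), Rpl22 (-0.04) and Rps3 (-0.40) were not called. Rpl22l1 was called higher (1.11, adjusted p = 0.0255), as were Rpl10 (1.28, adjusted p = 0.00179) and Rpl39 (1.79, adjusted p = 0.000651).

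The same lists were counted in the aged comparisons. Between CLL and wild-type cells, where 2.94% of all genes were called higher and 0.604% lower, 0 of 33 initiation factors, 0 of 13 elongation and termination factors and 0 of 4 subunit genes outside the rule were called. Higher calls were made for 2 of 76 mitochondrial ribosomal proteins (Mrpl34 at 2.00 and Mrps18a at 1.36), 1 of 14 genes with a TOP motif (Snhg1 at 1.21) and 1 of 10 chaperones (Rrp7a at 1.22), with 0 lower.

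Between CLL and non-CLL cells, where 0.744% of all genes were called higher and 5.02% lower, 2 of 33 initiation factors were higher, Eif4b (366 ± 54.0 TPM in CLL and 195 ± 38.5 TPM in non-CLL libraries, SD, n = 5 and 4, log2 change 0.91, adjusted p = 0.0398) and Eif3d (0.88). The poly(A)-binding protein Pabpc1 (0.83, adjusted p = 0.0488), Rrp7a (0.94) and Mrpl45 (0.99) were the 1 higher call of each of their lists. Of 13 elongation and termination factors 1 was lower, Eif5a2 (-1.85). The adjusted p-values of these list calls lay between 0.0369 and 0.0488 in limma's fit without the mouse as a block. How they fare with the block, which the shared animals call for, or with a library left out was not looked at.

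Between non-CLL and wild-type cells, where 55.8% of all genes were called higher and 1.48% lower, 5 of 33 initiation factors were lower and 0 higher, led by Eif3i (-1.04, adjusted p = 0.0211) and Eif3m (-0.93, adjusted p = 0.0115). Of 13 elongation and termination factors 1 was higher (Gspt2 at 2.52) and 2 lower, among them Eef1b2 (-0.91). Of 14 genes with a TOP motif 5 were higher, led by Snhg8 (2.16) and Tpt1 (1.88), and 2 lower. Of 76 mitochondrial ribosomal proteins 7 were higher, led by Mrpl33 (2.07) and Mrpl52 (1.81), and 4 lower. Of the 4 subunit genes outside the rule 2 were higher (Rpl36al at 1.72 and Fau at 1.39) and 0 lower, and of 10 chaperones 1 was higher (Nacad at 1.15) and 0 lower.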

How the data were processed

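RNA-seq of 18 libraries in 5 groups was used, out of 30 samples, and 12 chromatin samples were not analysed here. The values are TPM computed by the authors, per the labels of the aged samples and because all libraries of both deposited tables sum to the same total. The reference was mm10, and the tools named, without a role, are MACS2 2.2.0, STAR 2.4.0.1 and Bowtie2 2.3.4.1, per the submitters' processing notes. No source used here names the counting tool, the annotation or the strandedness. Depth is unknown, so no counting interval is given. Left out were 887 unnamed entries in the young table (4.44% to 9.36% of TPM per library) and 26 and 25 genes of the young and aged tables whose names had become dates.

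The members and the gene lists were chosen with earlier results of these data known. Rps3a and Rps4y2 of the aged table are Rps3a1 and Rps4l of the young table by RefSeq synonyms. Rpl6l, Rpl32l and Rps4y2 were grouped with the paralogues after the tables were read. Each table was tested on its own. A gene was kept if it reached 1 TPM in a number of libraries equal to the size of the smaller group, and the 2 groups of each of 4 comparisons were compared on log2(TPM + 1) with limma 3.58.1 in R 4.3.3 (variance trend, robust estimation, two-sided, Benjamini-Hochberg adjustment over all genes tested). A change is called at an adjusted p below 0.05. Fold values on this scale understate the change of low genes. The CLL and wild-type, CLL and non-CLL, and non-CLL and wild-type comparisons share libraries. The procedure was run on simulated data with independent noise, for genes averaging at least 20 TPM. Those data hold no shift in background between libraries, so they cannot judge the aged calls, and no result here rests on them. Named were genes fixed by role, the 4 largest called changes per direction and comparison, and the 3 highest and 3 lowest by mean TPM in each table. Alternatives were other pseudocounts (0.1 and 10), filters (none and 20 TPM), rescalings, weights, blocks, left-out libraries and, in the aged table, subtraction of the median of olfactory receptor genes. For CLL and non-CLL libraries the study's design gives the shared mouse, and the correlations of their deviations from the group means were -0.03, 0.03, 0.08 and 0.13 for mice 2, 4, 5 and 6. Sequences are from RefSeq promoter windows of GRCm38.p6. A few single genes are not reported here by name, and 1 B cell marker was left out of its list.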

Additional observations from a re-analysis of the deposited data

Results flagged for a closer look

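In 9 of 84 groups of 4 or 5 libraries looked at (each gene named by the rule and the summed level, in CLL and in non-CLL cells) 1 library stood far from the others. The cutoff used would flag about 1 in 20 groups of independent, normally distributed values. The groups here are TPM of genes that share the same libraries, so the count is only a description. All 9 were the highest of their group. In CLL library 1, Rps14 was at 662.8 TPM, with the next CLL library at 348 TPM, and Rplp0 was at 331 TPM, with the next at 181 TPM. In CLL library 4, the paralogue Rps27l was at 167 TPM, with the next at 72.5 TPM, and Rps19 at 38.2 TPM, with the next at 20.5 TPM. In CLL library 6, which has the highest olfactory receptor median of the CLL group (9.66 TPM), Rpl39l was at 12.1 TPM and the next library at 4.09 TPM. In non-CLL library 5, Rpl4 was at 2759 TPM, with the next at 1510 TPM, and Rpl22 at 91.3 TPM, with the next at 54.0 TPM. Rpl10a was at 31.6 TPM in non-CLL library 4, with the next at 21.5 TPM, and Rpl41 at 51.1 TPM in non-CLL library 6, with the next at 31.7 TPM.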

How the results depend on the processing

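For young homozygous against wild-type cells, the count of 66 lower calls stayed within 1.5 times under every setting (58 to 81 apart from left-out libraries, 45 to 68 with 1 library left out), with 0 higher throughout. The library number as a replicate block gave 60 lower calls. The numbers are not known to pair the young libraries, whose deviations correlated at -0.10, 0.24 and 0.32, and likewise CLL with wild-type libraries (0.04 and -0.01), where the block gave 0 calls. Of all 21202 genes only 2 were called higher and 0 lower with that block. No paired analysis was possible for non-CLL against wild-type cells because they share 1 number. For CLL against wild-type cells the 14 calls became 34 with a pseudocount of 0.1, 6 at 20 TPM and 2 without trend and robust estimation. They became 46 with library weights, 3 after background subtraction, 30 with all 3 aged groups in one fit, and 9 to 30 with 1 library left out. Calls of all 21202 genes moved too, from 623 higher and 128 lower to 8414 and 439 with a pseudocount of 0.1. They were 10971 and 1328 with library weights, 6224 and 488 in the one fit, and 122 and 13 without trend and robust estimation. At 20 TPM 96 of 6972 genes were higher and 53 lower. For CLL against non-CLL cells the 3 calls became 0 with a pseudocount of 0.1, at 20 TPM and without trend and robust estimation. Calls of all genes were then 74 higher and 182 lower, 96 and 136 of 7175, and 23 and 133, against 166 and 1121. The count for the set was 1 without a filter, after background subtraction and with the replicate block with or without that subtraction. Calls of all genes were then 137 higher and 805 lower without a filter and 173 and 172 of 13670 after subtraction. With the block they were 120 and 577, and with both 139 and 127. The set's count was 0 to 11 with 1 library left out and 10 with library weights. Of all 22316 genes 499 were called higher and 11206 lower with those weights. For non-CLL against wild-type cells the 27 calls became 5 at 20 TPM, where 68 of all 7220 genes were called higher and 15 lower. They became 50 after median-ratio rescaling, 1 after background subtraction, and 20 to 32 with 1 library left out. The cause was not tested. Uncalled changes that turned sign were Rps15 in CLL against wild-type cells (-0.063 after median-ratio rescaling), in CLL against non-CLL cells Rps13 (-0.12 without non-CLL library 4, to 0.26 without others), Rpl7 (-0.033 without non-CLL library 6, to 0.45 without others) and Rps4x (-0.17 with library weights, -0.085 with the replicate block or without CLL library 1, -0.21 without non-CLL library 6, to 0.23 without others), and in non-CLL against wild-type cells Rps15 (0.26 with library weights, 0.29 without non-CLL library 6, 0.11 without wild-type library 1, and down to -0.70 without others). TPM hold no depth, and values of the aged table under about 20 TPM lie near the background of some libraries.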
